A study of Rattus norvegicus with 6 samples.

Results

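Macrophages and other leukocytes of the renal cortex were followed through 10 marker genes: Cd68, Csf1r, Cd163, Adgre1, Mrc1, Cd14, Ptprc, Itgam, Aif1 and Lyz2. Every probe on the array whose RefSeq accession belongs to one of these genes was taken, which gave 23 probes of the 61453 analysed, for 10 of the 15645 genes that could be named. The tissue came from 6 male Sprague-Dawley rats (Crl:CD(SD), an outbred stock) purchased when 5 weeks old. The control group, 3 rats, received the vehicle corn oil over 4 weeks, and the other 3 rats received 1,2-dibromoethane, a halogenated solvent and former fumigant, at 75 mg/kg/day over the same time. Total RNA of the renal cortex was labelled with Cy3 and each animal had 1 array, so n = 3 per group. All animals shared the diet and housing, and no allele or second agent distinguishes the groups in the labels.

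Resident macrophages form a network between the tubules of the kidney and are maintained through the receptor encoded by Csf1r, which binds the cytokines Csf1 and Il34. Monocytes that enter an injured kidney from the blood carry Ptprc and Itgam, and become macrophages that can take up debris through lysosomes and scavenger receptors. Of the 10 genes, Cd68 encodes a lysosomal membrane protein of phagocytes and Adgre1 the adhesion receptor F4/80. Cd163 encodes the scavenger receptor for haptoglobin and haemoglobin, Mrc1 the mannose receptor and Cd14 a co-receptor for bacterial lipopolysaccharide. Ptprc encodes the leukocyte common antigen CD45, Itgam the alpha chain of the complement receptor CR3 and Aif1 the calcium-binding protein IBA1. Lyz2 encodes lysozyme. In bulk tissue, fewer cells of a type and less RNA per cell cannot be told apart.

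Transcription of many myeloid genes is known to depend on PU.1, a factor of the ETS family. The stretch of 250 bases before the transcription start was available for 9 of the 10 genes (RefSeq, assembly GRCr8), all but Aif1. The core GAGGAA of PU.1 sites, searched on both strands (as TTCCTC on the other), was present in 8 of these 9 stretches and in 23.3% of 33469 stretches of the same length in the whole table. Cd163 was the one without it. The TATA box TATAAA was in 0 of the 9, against 12.9% of all stretches, and the AP-1 motif TGANTCA only in that of Cd68, at 2 positions, against 6.34% of all. Neither overlapped GAGGAA. A match describes letters and not a bound site. In Cd68, Lyz2 and Itgam a match lay -27, -46 and -39 bases from the start (first base of the match), while that of Ptprc lay at -163. These 4 stretches are shown with that of Cd163, written 5′ to 3′ in the direction of the gene, with GAGGAA or TTCCTC in capitals:
Cd68, chr10:54882442-54882691, minus strand: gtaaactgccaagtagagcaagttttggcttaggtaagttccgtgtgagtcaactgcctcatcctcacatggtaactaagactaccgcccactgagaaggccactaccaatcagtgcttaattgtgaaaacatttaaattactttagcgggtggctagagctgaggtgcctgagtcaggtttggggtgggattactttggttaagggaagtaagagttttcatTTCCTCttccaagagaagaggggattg
Lyz2, chr7:54798012-54798261, minus strand: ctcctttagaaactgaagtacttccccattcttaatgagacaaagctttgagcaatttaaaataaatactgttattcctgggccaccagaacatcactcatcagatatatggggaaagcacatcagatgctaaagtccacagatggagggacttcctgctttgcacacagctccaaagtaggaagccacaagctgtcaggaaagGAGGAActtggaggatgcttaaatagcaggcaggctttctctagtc
Itgam, chr1:192089342-192089591, plus strand: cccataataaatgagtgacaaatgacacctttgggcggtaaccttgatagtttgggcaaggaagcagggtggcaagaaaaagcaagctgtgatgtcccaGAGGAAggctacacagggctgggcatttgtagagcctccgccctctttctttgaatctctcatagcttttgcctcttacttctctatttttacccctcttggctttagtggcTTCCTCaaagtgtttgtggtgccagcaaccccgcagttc
Ptprc, chr13:52259747-52259996, minus strand: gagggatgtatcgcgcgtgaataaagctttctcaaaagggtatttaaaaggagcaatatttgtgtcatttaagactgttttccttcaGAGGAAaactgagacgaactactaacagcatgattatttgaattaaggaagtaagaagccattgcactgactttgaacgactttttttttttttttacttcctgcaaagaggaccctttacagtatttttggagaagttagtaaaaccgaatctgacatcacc
Cd163, chr4:158770524-158770773, plus strand: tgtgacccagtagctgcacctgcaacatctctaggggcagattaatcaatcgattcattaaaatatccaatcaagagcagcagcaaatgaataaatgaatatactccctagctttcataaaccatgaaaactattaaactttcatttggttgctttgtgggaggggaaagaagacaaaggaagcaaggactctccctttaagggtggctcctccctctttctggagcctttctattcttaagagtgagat

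Levels are given as log2 of the processed signal minus the 75th percentile of the array, so that 0 is the level of a fairly bright probe. Levels of different probes are not compared, since probes differ in how well they bind. Testing required a mark of the scanner software for a signal well above background on every array of the control group, of the treated group or of both. This held for 19 of the 23 probes and for 9 of the 10 genes. Of these 19 probes, 18 were well above background on all 6 arrays. The other, that of Itgam, entered only through the treated group, where it was above background on 3 of 3 arrays, against 1 of 3 control arrays.

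None of the marker genes differed between the groups by the test. By limma with Benjamini-Hochberg adjustment over the 37274 probes tested, 0 of the 19 probes passed an adjusted p of 0.05, where 0.0268% of all probes tested did (0.0215% higher and 0.00537% lower in treated rats). At an unadjusted p under 0.05 there was 1 of the 19, a probe of Aif1, against 11.3% of all probes. The median log2 difference of the 19 probes, treated minus control, was 0.03, beside -0.01 over all probes tested. It lay between -0.034 and 0.051 under the alternative fits, so that its sign was not stable. Within slides 1 and 2 it was 0.01 and -0.18. Of the 19, 9 had a negative difference, where 53.2% of all probes did. In 2 of 19 the groups did not overlap, against 19.4% of all probes, and both were probes of Aif1 with the controls above. Over all probes, 11.8% had the controls above and 7.58% the treated arrays.

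**Figure D1:**
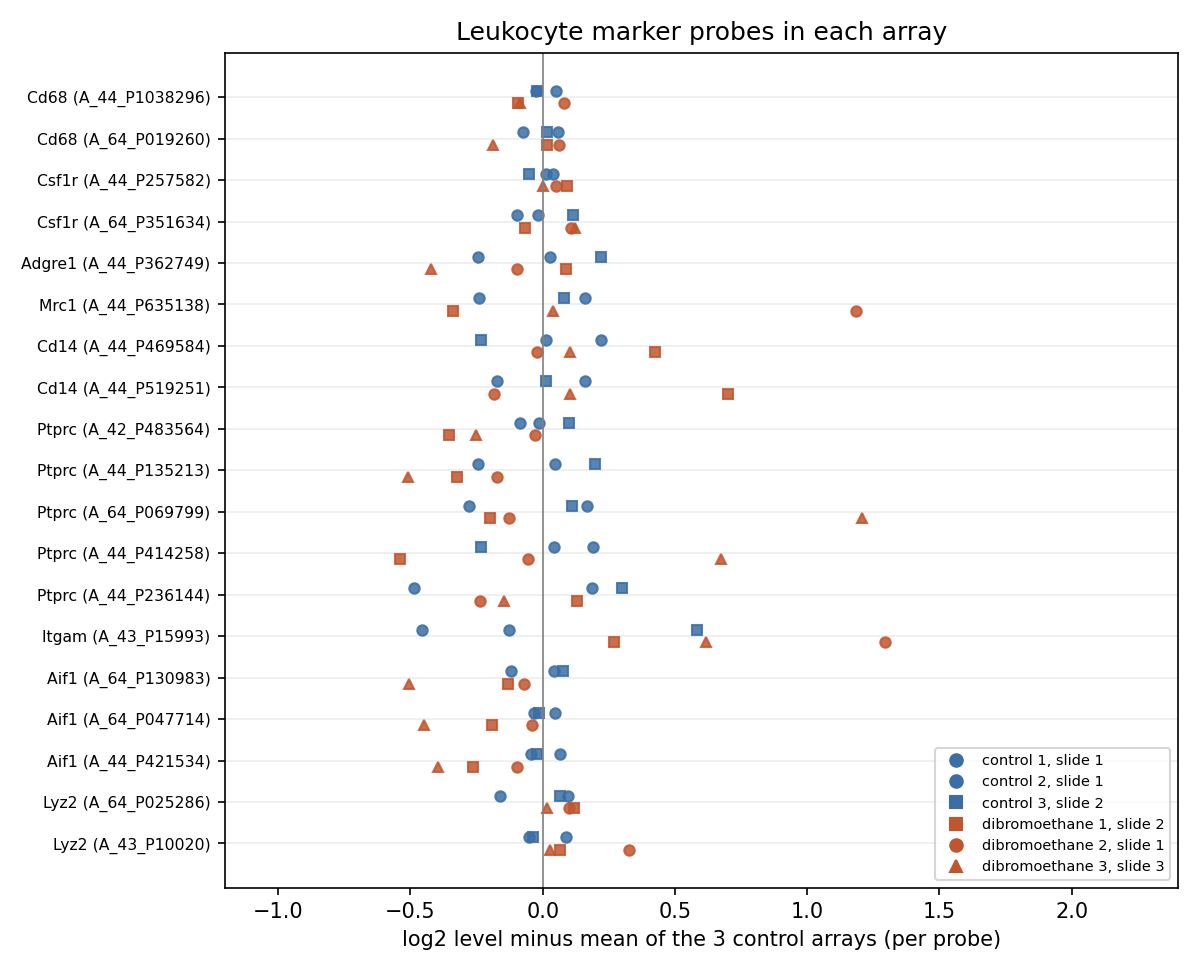
Log2 level of the 19 tested probes of the marker genes in each array, as the difference from the mean of the 3 control arrays; blue points are control and orange points dibromoethane arrays, and the shape of a point gives the slide. Most probes stayed within 0.5 of the control mean in all arrays; the widest departures were Itgam and Mrc1 in dibromoethane replicate 2 and probe A_64_P069799 of Ptprc in dibromoethane replicate 3.

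Cd68 and Csf1r were among the most precisely measured marker genes. Cd68 stood at 0.91, 0.83 and 0.83 in control replicates 1 to 3 and at 0.76, 0.94 and 0.77 in dibromoethane replicates 1 to 3 (probe A_44_P1038296). The treated animals thus lay on both sides of the controls, and the difference was -0.03 (SE 0.08, limma adjusted p = 0.894). Its 95% interval ran from -0.23 to 0.16, that is from 0.854-fold to 1.12-fold. The other Cd68 probe, A_64_P019260, gave -0.04 (95% interval -0.26 to 0.19). Both probes changed sign with slide as a fixed block (0.01 and 0.04).

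Csf1r, the growth factor receptor on which these cells depend, was likewise close in both groups. Its probe A_44_P257582 read -0.90, -0.92 and -0.99 in the controls and -0.85, -0.89 and -0.94 in the treated rats. These 6 values span little and the groups overlapped, with a difference of 0.05 (95% interval -0.12 to 0.21, limma adjusted p = 0.818), the narrowest interval of all the marker probes. Probe A_64_P351634 also gave 0.05 (95% interval -0.17 to 0.28).

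Adgre1 was measured by 1 probe, at -0.28, -0.55 and -0.09 in the controls and -0.22, -0.41 and -0.73 in the treated rats. Dibromoethane replicate 3 was the lowest of the 6 and the other 2 treated animals lay among the controls. The difference was -0.14 (95% interval -0.57 to 0.28, limma adjusted p = 0.779), and within slide 1 it was 0.01. It was -0.01 without dibromoethane replicate 3, -0.03 without control replicate 3, -0.26 without dibromoethane replicate 1 and -0.27 without control replicate 2.

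Aif1, the marker of microglia and tissue macrophages, was the one gene whose probes all pointed the same way with little overlap. Probe A_44_P421534 read 2.36, 2.47 and 2.38 in the controls and 2.14, 2.30 and 2.01 in the treated rats. Every treated animal lay below every control, with dibromoethane replicate 3 the lowest and replicate 2 the nearest to the controls. The difference was -0.25 (SE 0.10, 95% interval -0.49 to -0.02), a level 0.839-fold that of the controls. At an unadjusted p of 0.0391 it did not pass over all probes (limma adjusted p = 0.422).

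The other Aif1 probes gave similar sizes over all 6 arrays. Probe A_64_P047714 read 2.88, 2.96 and 2.89 in the controls and 2.72, 2.87 and 2.46 in the treated rats, again without overlap (difference -0.23, 95% interval -0.51 to 0.06, limma adjusted p = 0.507). Probe A_64_P130983 read 3.21, 3.37 and 3.41 against 3.20, 3.26 and 2.82, where the groups overlapped (difference -0.24, 95% interval -0.57 to 0.09). The 3 probes share the same RNA and are not independent. Within slide 1, which held 2 controls and 1 treated array, the differences were -0.11, -0.05 and -0.03 for A_44_P421534, A_64_P047714 and A_64_P130983. Within slide 2, with 1 array of each group, they were -0.24, -0.18 and -0.21. The treated array with the lowest values, dibromoethane replicate 3, lay alone on slide 3. Without it the differences were -0.18, -0.12 and -0.10 in the same order of probes.

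Aif1 lies on chromosome 20 of GRCr8 beside Lst1 and Prrc2a, within the major histocompatibility complex. The nearest 5 genes with a tested probe on each side, a choice made after the values of Aif1 were seen, gave 13 probes. Of these, 5 had a negative difference, where 53.2% of all probes did, and the median was 0.02 (range -0.27 to 0.49). None passed the adjusted threshold in limma, and 1 had an unadjusted p under 0.05, against 11.3% of all probes. That was the apolipoprotein gene Apom, at -0.27. These neighbours do not stand for the whole complex, and its genes farther from Aif1 are not described here.

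**Figure D2:**
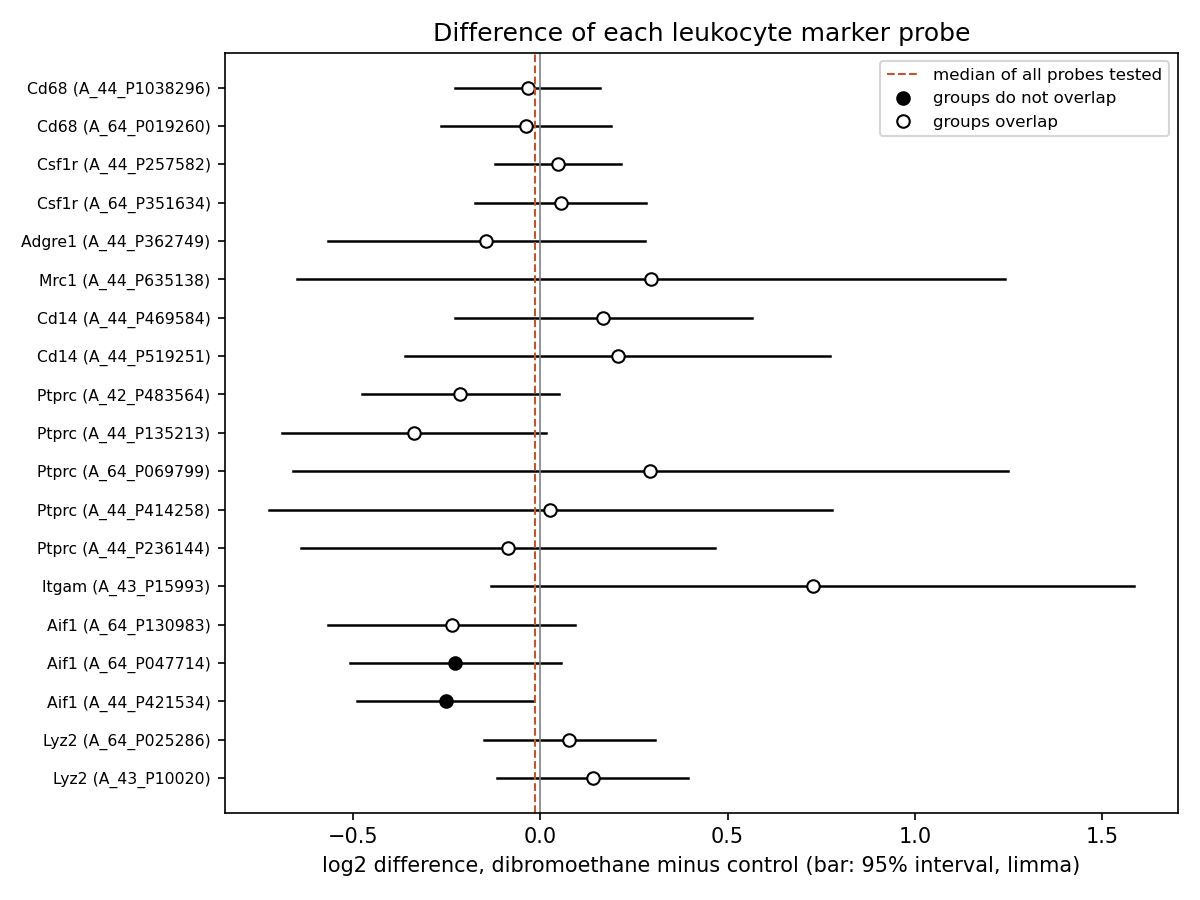
Log2 difference, dibromoethane minus control, of each tested marker probe with its 95% interval from limma; filled points mark probes whose groups do not overlap, and the dashed line is the median of all probes tested (-0.01). The 2 filled points are probes of Aif1, and the intervals of Cd68 and Csf1r are among the narrowest.

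Ptprc, which marks all leukocytes, was covered by 5 probes that did not agree. Probe A_42_P483564 read 0.00, -0.07 and 0.11 in the controls and -0.34, -0.02 and -0.24 in the treated rats. Dibromoethane replicates 1 and 3 lay below all controls and replicate 2 among them, with a difference of -0.21 (95% interval -0.48 to 0.05, limma adjusted p = 0.506). Probe A_44_P135213, which carries a different transcript accession from the other 4, read -2.48, -2.77 and -2.32 against -2.85, -2.70 and -3.03. Its difference was -0.34 (95% interval -0.69 to 0.02, limma adjusted p = 0.457).

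The remaining Ptprc probes gave 0.29, 0.03 and -0.09 (A_64_P069799, A_44_P414258 and A_44_P236144). The first read -3.05, -2.61 and -2.66 in the controls and -2.97, -2.90 and -1.57 in the treated rats, so that dibromoethane replicate 3 alone was high. Without that array the differences of A_64_P069799 and A_44_P414258 were -0.16 and -0.30. Within slide 2 all 5 probes were lower in the treated array, with differences of -0.52 to -0.17, and within slide 1 they lay between -0.17 and 0.02.

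Cd14 was higher in 1 treated animal. Probe A_44_P469584 read -0.18, -0.39 and -0.63 in the controls and 0.02, -0.42 and -0.30 in the treated rats, and probe A_44_P519251 read -3.92, -3.59 and -3.73 against -3.05, -3.93 and -3.64. In both probes dibromoethane replicate 1 was the highest of the 6 arrays. The other treated animals lay among the controls, except that dibromoethane replicate 2 was marginally the lowest of all in probe A_44_P519251. The differences were 0.17 (95% interval -0.23 to 0.56, limma adjusted p = 0.717) and 0.21 (95% interval -0.36 to 0.77). They were 0.66 and 0.69 within slide 2, which held that animal, and -0.14 and -0.18 within slide 1. Without that animal they were 0.04 and -0.04, and with normexp background correction, another way to remove the background, A_44_P519251 gave -0.01.

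Lyz2 was close in both groups. Probe A_64_P025286 read 6.03, 6.29 and 6.26 in the controls and 6.31, 6.29 and 6.21 in the treated rats, and no spot was saturated. Treated and control values overlapped, with a difference of 0.08 (95% interval -0.15 to 0.31, limma adjusted p = 0.780), which was 0.00 without control replicate 1. Probe A_43_P10020 gave 0.14 (95% interval -0.11 to 0.39), with dibromoethane replicate 2 the highest at 5.02, and 0.05 without that array.

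Mrc1 and Itgam were high in dibromoethane replicate 2 and variable. The Mrc1 probe A_44_P635138 read -2.80, -2.40 and -2.48 in the controls and -2.90, -1.37 and -2.52 in the treated rats. That animal stood apart and the other 2 lay at or just below the controls (difference 0.29, 95% interval -0.65 to 1.24, limma adjusted p = 0.798). Without dibromoethane replicate 2 the difference was -0.15. The other Mrc1 probe, A_43_P18738, did not rise well above background on any of the 6 arrays.

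The Itgam probe read -5.62, -5.95 and -4.91 in the controls and -5.22, -4.20 and -4.87 in the treated rats. Dibromoethane replicate 2 was again the highest, and control replicate 3 lay among the treated animals. The difference was 0.73 (95% interval -0.13 to 1.58, limma adjusted p = 0.489), and the probe stood near the background throughout, with processed signals of 13.2 to 45.6. With normexp the difference was 0.13. It was 1.58 within slide 1 and -0.31 within slide 2.

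Cd163 was not measurable. Its 3 probes were well above background on 0 of 6 arrays, with processed signals between 4.31 and 18.6, where the lowest signal of any probe well above background was 18.9 to 33.3 depending on the array. No difference is given for them. Whether the probes bind the rat transcript well was not tested.

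Most intervals were narrow. Of the 19 intervals, 12 lay wholly within a 1.5-fold change in either direction and 16 within a 2-fold change. The other 3 were those of Mrc1, Itgam and probe A_64_P069799 of Ptprc. That of Itgam rests on a control group with 1 of 3 arrays above background and sets no limit on its fold change.

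The slides were not balanced and the marker probes differed between them. Dibromoethane replicate 2 was hybridised on slide 1 beside the first 2 controls. Dibromoethane replicate 1 shared slide 2 with the third control, and dibromoethane replicate 3 was alone on slide 3. The median difference of the 19 probes was 0.01 within slide 1 and -0.18 within slide 2. In 7 probes the treated array was lower within both slides and in 4 it was higher within both. In the other 8 the signs were opposite. The 7 were the 3 probes of Aif1 and 4 of the 5 of Ptprc; the 4 were both probes of Lyz2, probe A_64_P019260 of Cd68 and probe A_44_P257582 of Csf1r.

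**Figure D3:**
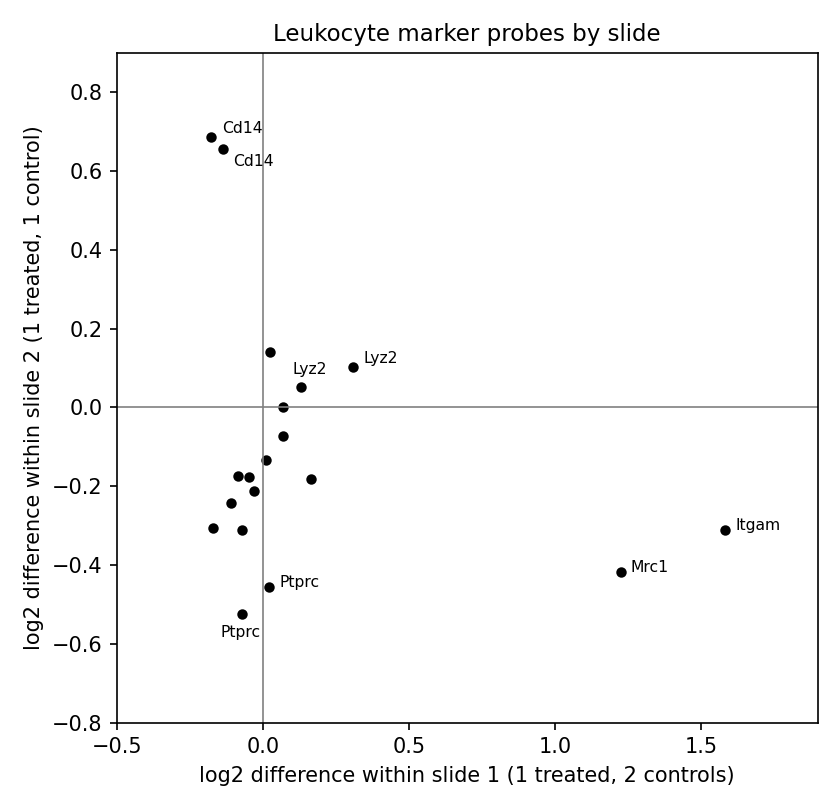
Each point is 1 tested marker probe, with its log2 difference (dibromoethane minus control) within slide 1 on the horizontal axis and within slide 2 on the vertical axis. Mrc1 and Itgam lie far right and low, Cd14 upper left, and both Lyz2 probes lie above 0 on both axes.

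Other genes of the same cells gave a wider view. The list of other macrophage and monocyte genes held 34 genes, of which 28 were tested with 38 probes. None of these probes passed the adjusted threshold in limma in either direction. Of the 38, 29 had a negative difference, against 53.2% of all probes, with a median of -0.20 beside -0.01 over all probes. At an unadjusted p under 0.05 there were 10 lower and 0 higher, where 6.59% and 4.68% of all probes were. The 2 genes with the smallest p were the complement gene C1qb and the inhibitory Fc receptor gene Fcgr2b.

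C1qb, a product of tissue macrophages, read 3.47, 3.33 and 3.29 in the controls and 2.86, 3.00 and 2.78 in the treated rats (probe A_64_P045476). The groups did not overlap and the difference was -0.48 (SE 0.09, limma adjusted p = 0.242), with -0.40 within slide 1 and -0.43 within slide 2. Its other probe gave -0.45. Fcgr2b gave -0.95 (SE 0.19, limma adjusted p = 0.246) with one probe and -0.34 (SE 0.21) with the other.

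The pan-leukocyte list, with 24 tested probes of 16 genes, had 19 negative differences, where 53.2% of all probes were negative, and a median of -0.18. None of the 24 passed in limma. Without adjustment (p under 0.05), 7 were lower and 0 higher, beside 6.59% and 4.68% of all probes. Cd52, a surface glycoprotein of leukocytes, stood at -0.73 (SE 0.18, limma adjusted p = 0.326), and Laptm5, a lysosomal protein of blood cells, at -0.34 (SE 0.09, limma adjusted p = 0.331). In the T, B and NK lymphocyte list, 0 of 17 probes passed in limma. Before adjustment (p under 0.05), 3 were lower and 1 higher, beside the same 6.59% and 4.68%. Of the 17, 15 were negative, against 53.2% of all probes, with a median of -0.23. Without control replicate 2 this median was -0.15, and with normexp it was -0.11. The granzyme gene Gzmb gave -1.08, -0.78 and -0.62 with its 3 probes, which became -0.38, -0.26 and -0.28 with normexp. The probe at -1.08 entered only through the control group, where it was above background on 3 of 3 arrays, against 1 of 3 treated arrays. Its difference therefore rests partly on signals near the background.

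By array, these lists were low in dibromoethane replicates 1 and 3. In replicate 2 the pan-leukocyte list was also below the controls, while the macrophage and lymphocyte lists lay among them. For the macrophage and monocyte list, the median deviation from the control mean was -0.17, 0.01 and -0.36 in dibromoethane replicates 1 to 3, and between -0.03 and 0.05 in the controls. Its median difference was 0.03 within slide 1 and -0.23 within slide 2, and it was -0.10 without dibromoethane replicate 3 and -0.28 without replicate 2. The pan-leukocyte medians were -0.19, -0.12 and -0.28 in the treated arrays and -0.06 to 0.11 in the controls, and its difference was -0.02 within slide 1 and -0.29 within slide 2, and -0.09 without dibromoethane replicate 3. The lymphocyte list stood at -0.35, 0.00 and -0.32 in the treated arrays, and at 0.04 within slide 1 and -0.47 within slide 2.

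**Figure D4:**
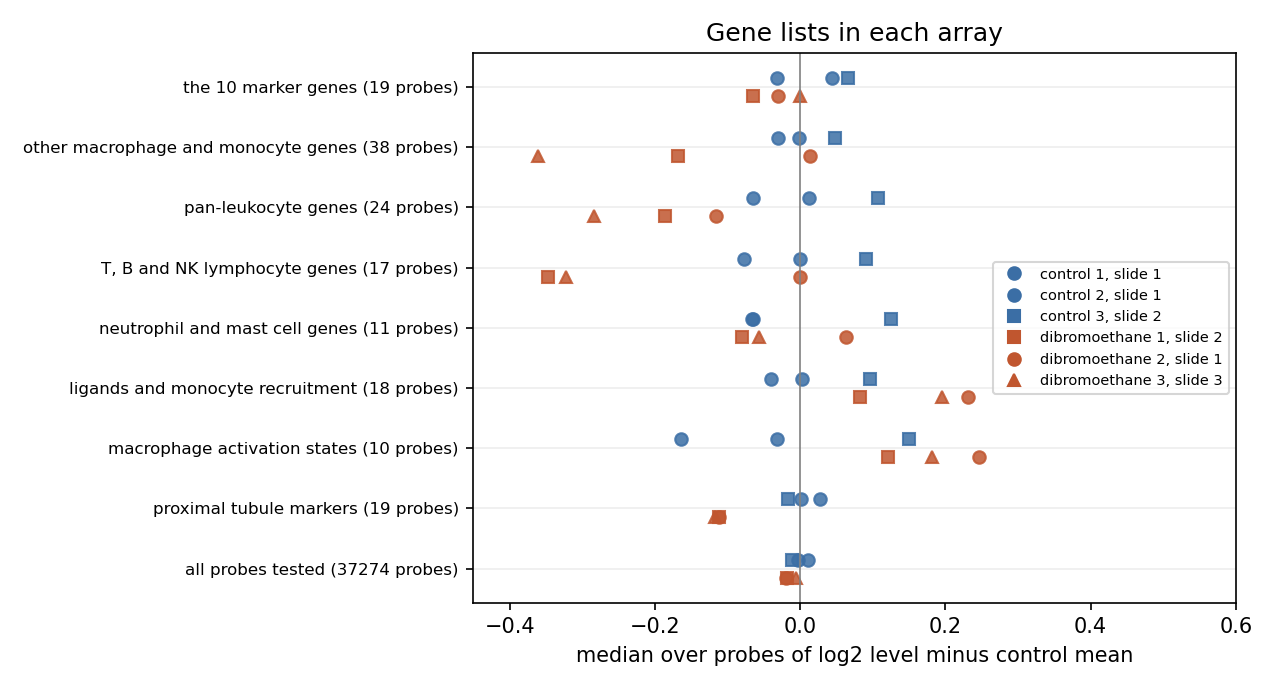
Median over the tested probes of each gene list of the log2 level minus the mean of the control arrays, 1 point per array, with colour for the group and shape for the slide. Dibromoethane replicates 1 and 3 lie below the controls in the macrophage, pan-leukocyte and lymphocyte lists, and replicate 2 only in the pan-leukocyte list of these. The 10 marker genes stay between -0.07 and 0.07 in all 6 arrays.

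Neutrophil and mast cell genes were thinly covered, with 11 tested probes for 9 of 18 genes and a median of -0.02 (0.14 within slide 1 and -0.19 within slide 2). In limma 0 probes passed, and 0 had an unadjusted p under 0.05, against 11.3% of all probes. The granule genes Elane and Mmp8 and the mast cell genes Cpa3 and Ms4a2 were not well above background on any array. S100a8, a calcium-binding protein of neutrophils and monocytes, stood at -0.31 (SE 0.16) and Csf3r, the receptor for granulocyte colony-stimulating factor, at 0.47 (SE 0.26). The Csf3r probe entered only through the treated group, with 3 of 3 arrays above background against 2 of 3 control arrays. Its difference was 0.13 with normexp, and 0.96 and 0.12 within slides 1 and 2.

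Ligands of the marker receptors, monocyte recruitment genes and genes listed with them had mostly positive differences over all arrays, though not within slide 2. The list also held Csf3, Il6, Tnf, Lbp, Tlr4, Ly96 and Fgb, the last of which was counted among the liver transcripts as well. In the list of ligands and recruitment genes, 12 of 18 probes had a positive difference and 6 a negative one, where 53.2% of all probes were negative. The median was 0.17 (0.21 within slide 1, and -0.05 with 10 of 18 negative within slide 2). At an unadjusted p under 0.05 in limma, 4 were higher and 0 lower, beside 4.68% and 6.59% of all probes. In 4 of the 18 all treated arrays lay above all controls, and in 2 all controls lay above. Over all probes these shares were 7.58% and 11.8%. None passed the adjusted threshold. Csf1, a ligand of Csf1r, read -0.69, -0.67 and -0.65 in the controls and -0.21, -0.17 and -0.13 in the treated rats (probe A_42_P695042). All treated animals lay above all controls, with a difference of 0.50 (SE 0.06, limma adjusted p = 0.184). The second Csf1 probe gave 0.41 (SE 0.07). Within the slides the difference remained positive, at 0.51 and 0.44 within slides 1 and 2 for the first probe.

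Il34, the second ligand of Csf1r, did not separate the groups: it stood at 4.94, 4.58 and 4.69 in the controls and 4.80, 4.82 and 4.96 in the treated rats (difference 0.12, SE 0.11, limma adjusted p = 0.699). The monocyte chemoattractant Ccl2 read -1.05, -1.21 and -0.85 in the controls and -0.15, -0.15 and -0.26 in the treated rats (difference 0.85, SE 0.11, limma adjusted p = 0.170; 0.98 within slide 1 and 0.70 within slide 2). Whether the differences of these ligands and of the marker genes themselves differ was not tested. Among 10 tested probes of activation genes, 7 were positive with a median of 0.13, which was 0.24 without control replicate 3 and 0.07 with normexp. Within slide 1 it was 0.24, and within slide 2 it was -0.02 with 5 of 10 negative. None passed in limma (2 higher and 0 lower before adjustment). The chemokine genes Ccl17 and Cxcl10 had the smallest p, at 0.35 (SE 0.11) and 0.43 (SE 0.18), and Cd80, Il12b and Retnla were not well above background on any array.

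Markers of other cell types place these values in the tissue. All 10 proximal tubule markers and all 16 markers of other renal cells were well above background on all 6 arrays, and 8 of the 10 leukocyte markers were. Proximal tubule markers were lower in 15 of 19 probes, with a median of -0.09, and at -0.11, -0.11 and -0.12 in the 3 treated arrays, but quantile normalization turned the median to 0.03 with 8 of 19 negative. Over all probes tested, 53.2% had a negative difference in the main fit. The transporter gene Slc22a6 stood at -0.28 (SE 0.07) and -0.31 (SE 0.09), and the inositol oxygenase gene Miox at -0.27 (SE 0.08) and -0.15 (SE 0.06). Probes of other renal cells had a median of 0.08 (-0.02 with 1 probe per gene) and blood cell transcripts one of 0.02 (-0.23 without dibromoethane replicate 2 and 0.19 without replicate 3), with the globin gene Hbb at -0.43 and -0.48.

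Transcripts abundant in liver varied far more. The median of 15 probes stood at -1.31, 0.85 and 0.56 in the controls and at 3.05, 1.43 and 1.02 in the treated arrays, a median difference of 1.86 (1.1 without control replicate 1, and 1.08 over the 9 probes well above background on all arrays), and 7 of the 10 genes were well above background on all arrays. Dibromoethane replicate 1, highest in these transcripts, was also the highest in Cd14. Their part in the values of the marker genes was not tested.

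Across the probes tested, which are not replicates, arrays correlated within groups at r = 0.990 to 0.993 and between groups at 0.988 to 0.992. Between 59.2% and 67.8% of the analysed probes were well above background on an array. The number of arrays limits the precision of each difference. Of all probes tested, 10 passed the adjusted threshold in limma, 8 higher and 2 lower, and none of them belongs to the genes above.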

How the data were processed

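Renal cortex RNA of 6 rats, 3 per group, was measured on single-colour arrays, 1 per animal. Per the file headers, Agilent Feature Extraction 10.7.1.1 wrote the deposited intensity of each spot, already background-subtracted (design 045522, grid build rn4); the submitters' processing notes name version 10.7. The deposited series table holds the same intensity values divided by each array's 75th percentile (linear and uncentred, with column medians from 0.102 to 0.112; against the log2 scanner values r = 1.000). Flags for background and outliers were used as deposited.

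Of 62976 spots, 1439 controls and 84 ERCC probes were left out, and 1 to 11 outlier spots per array were set to missing (none a marker probe). Accessions were matched without versions to a RefSeq table of GRCr8, which differs from rn4 and served for names, gene order and promoters only; 28206 probes (45.9%) received a symbol. Log2 processed signals minus the array's 75th percentile were fitted per probe in limma 3.58.1 under R 4.3.3 (lmFit, eBayes; residual degrees of freedom 4, prior 2.12), two-sided, threshold 0.05 after Benjamini-Hochberg adjustment over 37274 probes; intervals are 95%. The script was tested on simulated data. The files have no mean spot signal, so normexp (offset 50) used the median signal. The genes and lists were chosen with earlier results of these data known. All probes of the 10 genes were named, and from each other list the 2 genes with the smallest p, with Csf1, Il34 and Ccl2; Apom was named after its value was seen. One gene that this rule picks is not reported here. List genes without a matched probe were not analysed here.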

Additional observations from a re-analysis of the deposited data

How the results depend on the processing

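The count of 0 marker probes passing the threshold was 0 under every alternative run: quantile normalization, median centring, normexp, other filters, 1 probe or the mean of the probes per gene, blocks for slide, scan day and replicate number, eBayes with trend and robust, weights per array, the submitters' series table, and each array omitted in turn. The median difference of the marker probes was -0.034 without a filter, which adds the 4 dim probes.

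The count over all probes, 10, was 6 with normexp, 1 without a filter, 0 with slide as a fixed block (2 residual degrees of freedom, as on only the slides with both groups, also 0), 2 with scan day as a fixed block, 20 with trend and robust, and 1 to 13 when 1 array was left out (4, 1 and 13 without control replicates 1 to 3; 1, 3 and 6 without dibromoethane replicates 1 to 3); limma counted 4394 probes at an unadjusted p under 0.05 with the slide block. With the replicate block, 0 passed (4455 unadjusted); deviations of same-numbered arrays correlated at -0.20, 0.24 and 0.13, so the numbers were not taken to pair the animals. Apart from degrees of freedom and probes tested, the cause was not tested.

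Of 416 single values recomputed, 377 kept their sign and 39 changed it, none of them past the threshold. For Ptprc, A_44_P414258 was -0.011 with quantile normalization, -0.0079 with median centring, -0.077 with normexp, -0.23 with slide as a fixed block, -0.035 as a random block, -0.054 with array weights, and -0.17 and -0.31 within slides 1 and 2; A_64_P069799 was -0.17 with the fixed block and -0.070 and -0.31 within slides; A_44_P236144 was 0.0077 with array weights; A_42_P483564 was 0.019 within slide 1. Cd68 was 0.0086 (A_44_P1038296) and 0.040 (A_64_P019260) with the fixed block and 0.069 and 0.068 within slide 1; the first was 0.010 with normexp and the second 0.0018 within slide 2. Cd14 A_44_P519251 was -0.0061 with normexp and -0.18 within slide 1, and A_44_P469584 -0.14 there. Within slide 2, Csf1r A_64_P351634 was -0.18, Mrc1 -0.42 and Itgam -0.31; within slide 1 Adgre1 was 0.012. Leaving out 1 array gave -0.040 to 0.40 for Cd14 A_44_P519251, -0.085 to 0.039 for Cd68 A_64_P019260, -0.0037 to 0.13 for Lyz2 A_64_P025286, -0.15 to 0.61 for Mrc1 A_44_P635138, -0.33 to 0.065 for Ptprc A_44_P236144, -0.30 to 0.31 for Ptprc A_44_P414258 and -0.16 to 0.54 for Ptprc A_64_P069799.

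List medians were recomputed after the data were seen. Scaling, background correction or probe choice turned the sign of that of the proximal tubule list (0.027 with quantile normalization), of other renal cells (-0.016 with 1 probe per gene), of blood cell transcripts (-0.013 with median centring, -0.20 with 1 probe per gene) and of the neutrophil list (0.00090 with normexp). No leave-one-out fit changed the sign of the macrophage, pan-leukocyte or lymphocyte median. Normexp also lowered the differences of Mrc1 to 0.17, Ptprc A_64_P069799 to 0.13, Ccl17 to 0.08 and Csf3r to 0.13.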
